A study of Homo sapiens with 4 samples.

Results

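The genes described here are 30 genes of cholesterol and fatty acid synthesis, taken from a deposited table of 20252 gene symbols by a fixed list of names. All 30 were found, all reached a mean of 1 FPKM, a level scaled for the length of the transcript and the size of the library, and none was listed at 0 in any library. They comprise 17 enzymes of sterol synthesis, 8 enzymes of fatty acid synthesis and desaturation, and 5 regulators and transporters. The source was H2030, a human cell line established from a lung adenocarcinoma, from which 4 poly(A) RNA libraries had been sequenced. A control vector is named on 2 of them and GALNT3 overexpression on the other 2, and the cells had been grown for 2 days in RPMI with 10% serum at passage 5 to 10. No drug or other treatment is recorded. Separate cultures, a single clone or a pool of cells are not named as the origin of a group's libraries, so p-values reflect how far these libraries differ, possibly for technical reasons. H2030 is a single line, and a difference between 2 of its derivatives can include differences that arose when they were made.

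Cholesterol is built from acetyl-CoA through mevalonate, isoprenoid diphosphates, squalene and lanosterol, and fatty acids are built from the same acetyl-CoA through malonyl-CoA. Transcription of both branches is driven by the membrane-bound factors SREBP-1 and SREBP-2, which are carried from the endoplasmic reticulum to the Golgi by SCAP when sterols are low and are held back by INSIG proteins when sterols are high. In the lung, type II alveolar cells use the fatty acid branch to make surfactant lipids, and carcinoma cells commonly keep both branches active for membrane growth.

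GALNT3, whose product begins O-linked glycosylation of mucins and other proteins in the Golgi, went against its label. Its level was 4.34 and 5.34 FPKM in vector replicates 1 and 2, and at 0.0164 and 0 FPKM in GALNT3 overexpression replicates 1 and 2. Groups are therefore named throughout as the libraries are labelled, and every direction between them would turn if the labels were exchanged. Relative sequencing depth, read from the steps that whole fragments leave in low values, ranged from 0.966 to 1.07. Of 6 markers of simple epithelium 4 reached 1 FPKM in a library, with KRT18 at 331 to 439 FPKM and KRT8 at 109 to 145 FPKM, while KRT19 was listed at 0 and CDH1 reached 0.209 FPKM at most. Of the markers of other cell types, 2 of 6 for leukocytes reached 1 FPKM in a library (CD68 at 16.3 to 29.3 FPKM, CD14 at 0.307 to 1.31 FPKM), as did 1 of 5 for fibroblasts (COL1A1, 3.57 to 4.89 FPKM), 1 of 4 for hepatocytes (APOA1, 0.502 to 1.12 FPKM), 0 of 4 for endothelium and 0 of 5 for adipocytes. CD68 was lower in the libraries labelled GALNT3 overexpression (limma, adjusted p = 0.0238), and its part in the results below was not tested.

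Levels on the per-length FPKM scale spread over a wide range, with FDPS highest and HSD17B7 lowest in each of the 4 libraries. FDPS, which joins isoprenoid units into farnesyl diphosphate, was the most abundant, with a mean of 211 FPKM. SCD, the desaturase that makes oleate, followed at 160.2 FPKM. ACLY, which releases cytosolic acetyl-CoA from citrate, was at 131 FPKM and FADS2, the delta-6 desaturase, at 113 FPKM. At the other end were MVK, which phosphorylates mevalonate, at 5.67 FPKM, and HSD17B7, a 3-ketosteroid reductase that completes C4 demethylation, at 3.64 FPKM. Summed over the 17 sterol enzymes, the level was 648 and 579 FPKM in vector replicates 1 and 2, and 640 and 590 FPKM in GALNT3 overexpression replicates 1 and 2. For the 8 fatty acid genes the sums were 650 and 511 FPKM, then 594 and 522 FPKM. In both classes each replicate 1 library lay above each replicate 2 library, and the labels overlapped. The FPKM sum over all genes of a library had this same order by replicate number, and its labels also overlapped. The order is therefore not particular to these classes. Whether the class sums differed by more than the sum over all genes was not tested.

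**Figure D1:**
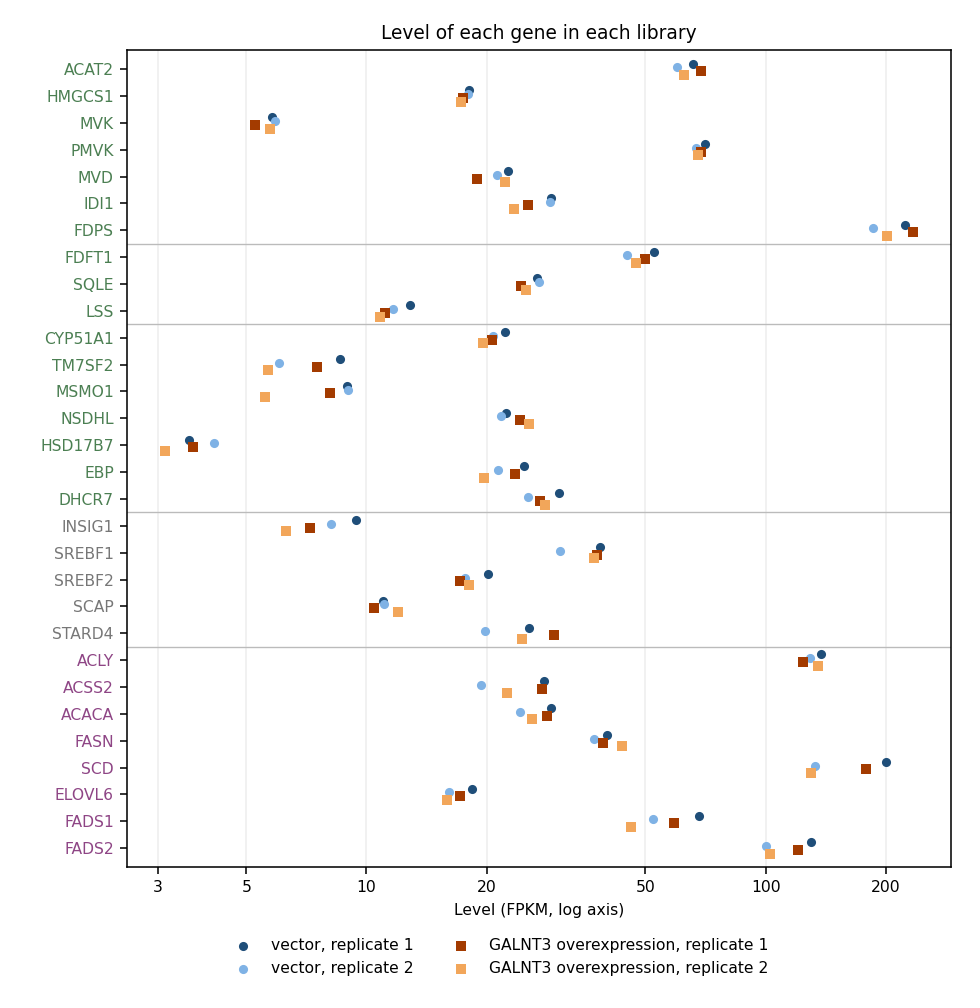
Level of the 30 genes in each of the 4 libraries, in FPKM on a log axis, with 1 point per library (circles vector, squares GALNT3 overexpression, dark replicate 1, light replicate 2) and gene names coloured by class (green sterol enzymes, grey regulators and transport, purple fatty acid synthesis). Genes are arranged by pathway. Their levels, from FDPS with a mean of 211 FPKM to HSD17B7 with 3.64 FPKM, span far more than the distance between libraries of 1 gene.

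Many, but not all, of the promoters hold a sequence feature that did not enter the choice of genes. In the 250 bases before the annotated start (RefSeq, GRCh38.p14; 26 of the 30 genes matched, 35 windows), the letters CCAAT, the core of the motif bound by NF-Y, were found on either strand for 19 of 26 genes, or 73.1%. The share was 42.2% of 8043 tested genes with a promoter and 37.0% of all 27305 genes with one. NSDHL and MVK held 5 matches each and MSMO1 held 4, whereas FADS1, FADS2, SREBF1, SCAP, PMVK, ELOVL6 and CYP51A1 held 0. The letters TCACNCCAC, 1 form of the sterol regulatory element bound by SREBPs, were found in 1 of 26, SREBF2, against 1.24% of tested genes with a promoter. These are matches of letters in short windows, not measured binding sites. The promoters below belong to the genes with the smallest p (INSIG1) and the lowest estimate (MSMO1) between labels, to the gene with the lowest estimate between replicate numbers (SCD), and to the gene with the TCACNCCAC match. They read 5′ to 3′ on the plus strand and stop before the first annotated exon base of the gene in GENCODE 29. Capitals mark CCAAT or its reverse complement ATTGG in the first 3 and the TCACNCCAC match in SREBF2, whose stretches lie at chr7:155297628-155297775, chr4:165327419-165327622, chr10:100346983-100347123 and chr22:41832855-41833078.
INSIG1: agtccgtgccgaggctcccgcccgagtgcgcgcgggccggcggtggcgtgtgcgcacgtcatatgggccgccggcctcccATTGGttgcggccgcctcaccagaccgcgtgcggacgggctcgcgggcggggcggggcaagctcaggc
MSMO1: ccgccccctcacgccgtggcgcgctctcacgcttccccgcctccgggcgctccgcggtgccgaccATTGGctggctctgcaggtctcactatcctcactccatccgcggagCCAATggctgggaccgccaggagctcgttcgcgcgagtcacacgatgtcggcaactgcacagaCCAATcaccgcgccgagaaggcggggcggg
SCD: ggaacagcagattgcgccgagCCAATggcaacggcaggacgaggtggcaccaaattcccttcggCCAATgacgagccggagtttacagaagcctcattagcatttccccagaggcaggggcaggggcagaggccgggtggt
SREBF2: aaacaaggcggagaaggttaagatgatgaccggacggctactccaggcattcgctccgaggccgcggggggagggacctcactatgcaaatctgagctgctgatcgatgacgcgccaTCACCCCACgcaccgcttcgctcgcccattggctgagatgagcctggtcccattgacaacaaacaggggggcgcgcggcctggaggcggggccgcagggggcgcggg

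Between the labels, 0 of the 30 genes passed the test, against 0.500% of the 10998 genes tested (55 genes). The test was limma on log2(FPKM + 1) with Benjamini-Hochberg adjustment over all tested genes and a threshold of 0.05, and the smallest adjusted p among the 30 was 0.528. The estimated difference, GALNT3 overexpression label minus vector label, ran from -0.37 for MSMO1 to 0.25 for STARD4, with SE between 0.08 and 0.21. These correspond to 0.774-fold and 1.19-fold on the FPKM + 1 scale. The 95% intervals of the 30 genes lay between -0.73 and 0.58 at their extremes, and each gene's own interval was narrower than that range. In bulk RNA, fewer cells expressing a gene and less RNA per cell cannot be told apart.

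The sterol enzymes had small estimates between the labels, and the split of their signs shifted when single libraries were left out, as did that of all tested genes. Of 17, 14 had an estimate below 0 (82.4%), with FDFT1 almost at 0, beside 44.7% of all tested genes. Their median difference was -0.09, beside 0.02 over all tested genes. Without vector replicate 1, 9 of 17 were below 0 (52.9%, beside 36.6% of all tested genes) and the median was -0.048. Without GALNT3 overexpression replicate 2, 10 of 17 were below 0 (58.8%, beside 42.9%) and the median was -0.043. Without vector replicate 2 it was 15 of 17 (88.2%, beside 56.2%), and without GALNT3 overexpression replicate 1, 14 of 17 (82.4%, beside 48.5%). Both libraries labelled GALNT3 overexpression lay below both labelled vector for 7 of 17 (41.2%), against 15.3% of all tested genes, and above both for 1 (5.88%), against 20.9%. None of the 17 passed the test, and 2, both lower, had an unadjusted p below 0.05 (limma), against 3.72% of tested genes. Single genes in these counts come from the same 4 libraries and are not independent of each other.

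In the mevalonate arm, IDI1, which converts isopentenyl to dimethylallyl diphosphate (chromosome 10, 1039152 to 1049170, GRCh38), was at 28.95 and 28.9 FPKM in vector replicates 1 and 2 and at 25.5 and 23.4 FPKM in GALNT3 overexpression replicates 1 and 2. The labels did not overlap, the difference was -0.24 ± 0.09 (SE), and it did not pass (adjusted p = 0.590). HMGCS1, which makes the precursor of mevalonate, was at 18.1 and 17.99 FPKM, then 17.5 and 17.2 FPKM. MVK was at 5.82 and 5.89 FPKM, then 5.25 and 5.73 FPKM. Both of these also lay lower without overlap, with small estimates (-0.05 ± 0.09 and -0.08 ± 0.10). The other enzymes of the arm overlapped between the labels. ACAT2, the cytosolic thiolase of the first step, was at 65.6 and 60.2 FPKM, then 69.0 and 62.5 FPKM. PMVK, the second kinase, stayed between 66.9 and 70.3 FPKM in all 4 libraries. MVD, the decarboxylase, was at 22.7 and 21.3 FPKM, then 18.9 and 22.3 FPKM. FDPS was at 223 and 186 FPKM, then 234 and 201 FPKM, so that replicate number separated its libraries and the label did not.

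From squalene to lanosterol, SQLE, the epoxidase that is a rate-limiting step after squalene, was at 26.7 and 27.1 FPKM in vector replicates 1 and 2, and at 24.4 and 25.1 FPKM in GALNT3 overexpression replicates 1 and 2. Its difference was -0.11 ± 0.08 (SE; limma, adjusted p = 0.858). LSS, the cyclase that forms lanosterol, was at 12.9 and 11.7 FPKM, then 11.1 and 10.8 FPKM. In both genes the labels did not overlap. FDFT1, the squalene synthase, was at 52.7 and 44.9 FPKM, then 49.98 and 47.3 FPKM, with group means of 48.8 and 48.6 FPKM.

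Among the enzymes after lanosterol, MSMO1, the C4 sterol methyl oxidase (chromosome 4, 165327623 to 165343160), had the largest difference. It was at 8.97 and 9.01 FPKM in vector replicates 1 and 2 and at 8.09 and 5.59 FPKM in GALNT3 overexpression replicates 1 and 2. GALNT3 overexpression replicate 2 alone stood well apart from the other 3 libraries. The difference of -0.37 ± 0.15 (SE) did not pass (limma, adjusted p = 0.659), and it was -0.14 without GALNT3 overexpression replicate 2 but -0.60 when replicate 1 of that label was left out. CYP51A1, the lanosterol demethylase, was at 22.2 and 20.8 FPKM, then 20.6 and 19.5 FPKM, lower without overlap. It shares 2844 exon bases on the same strand with another annotated gene, AC000120.2, so its fragments may have been divided between them. NSDHL, which acts with MSMO1 in removing the C4 methyl groups, was the exception in direction. It was at 22.4 and 21.7 FPKM, then 24.2 and 25.5 FPKM, higher without overlap (0.17 ± 0.09; limma, adjusted p = 0.770). HSD17B7, the last enzyme of that demethylation, was at 3.60 and 4.15 FPKM, then 3.68 and 3.13 FPKM. EBP, a sterol isomerase, was at 24.9 and 21.3 FPKM, then 23.6 and 19.7 FPKM. DHCR7, which makes cholesterol from its 7-dehydro precursor, was at 30.4 and 25.5 FPKM, then 27.3 and 28.03 FPKM. TM7SF2, a sterol C14 reductase, was at 8.60 and 6.03 FPKM, then 7.51 and 5.66 FPKM. These last 4 overlapped between the labels.

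Of the 5 regulators and transporters, INSIG1, the endoplasmic reticulum protein that retains SCAP and whose own gene is an SREBP target (chromosome 7, 155297776 to 155310235), had the smallest p-value among the 30 genes between the labels. It was at 9.42 and 8.17 FPKM in vector replicates 1 and 2, and at 7.24 and 6.29 FPKM in GALNT3 overexpression replicates 1 and 2. Group means were 8.79 ± 0.88 and 6.76 ± 0.67 FPKM (SD, n = 2), the libraries did not overlap, and the difference of -0.34 ± 0.12 (SE) had an adjusted p of 0.528 (limma). Its 95% interval ran from -0.60 to -0.07. With replicate number added as a block, for which the labels give no basis, INSIG1 was the 1 member of 30 to pass, against 4.03% of tested genes (2.01% lower). STARD4, which carries sterols between membranes, had the largest positive estimate. It was at 25.5 and 19.8 FPKM, then 29.5 and 24.5 FPKM, and the labels overlapped (0.25 ± 0.14; limma, adjusted p = 0.788). Without vector replicate 1 its estimate was 0.42, and without vector replicate 2 it was 0.07. SREBF1, which encodes SREBP-1, was at 38.5 and 30.5 FPKM, then 37.7 and 37.3 FPKM. SREBF2, which encodes SREBP-2, was at 20.1 and 17.7 FPKM, then 17.1 and 18.1 FPKM. SCAP was at 10.99 and 11.04 FPKM, then 10.4 and 12.02 FPKM. Per length, SREBF1 lay above SREBF2 by 1.73-fold to 2.20-fold in the 4 libraries. These are messenger RNA levels. The processed, active forms of the SREBP proteins were not measured.

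The 8 fatty acid genes did not separate by label at all. None lay outside the range of the other label in either direction, against 15.3% of tested genes lower and 20.9% higher. For 6 of 8 this was bound to hold, because both replicate 2 libraries lay below both replicate 1 libraries. Such a gene cannot separate by label, so this count and the replicate arrangement described below are not separate results. An unadjusted p below 0.05 (limma) was found for 0, against 7.34% of tested genes. Their median difference was -0.04, and it was 0.15 without vector replicate 1 and -0.15 without vector replicate 2. FASN, the fatty acid synthase, was at 40.2 and 37.1 FPKM in vector replicates 1 and 2 and at 39.1 and 43.7 FPKM in GALNT3 overexpression replicates 1 and 2, and its interval ran from -0.13 to 0.32. ACLY was at 137 and 129 FPKM, then 124 and 135 FPKM, with an interval from -0.26 to 0.18. For SCD the interval was the widest of the class, from -0.59 to 0.40, because its libraries differed by replicate number.

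**Figure D2:**
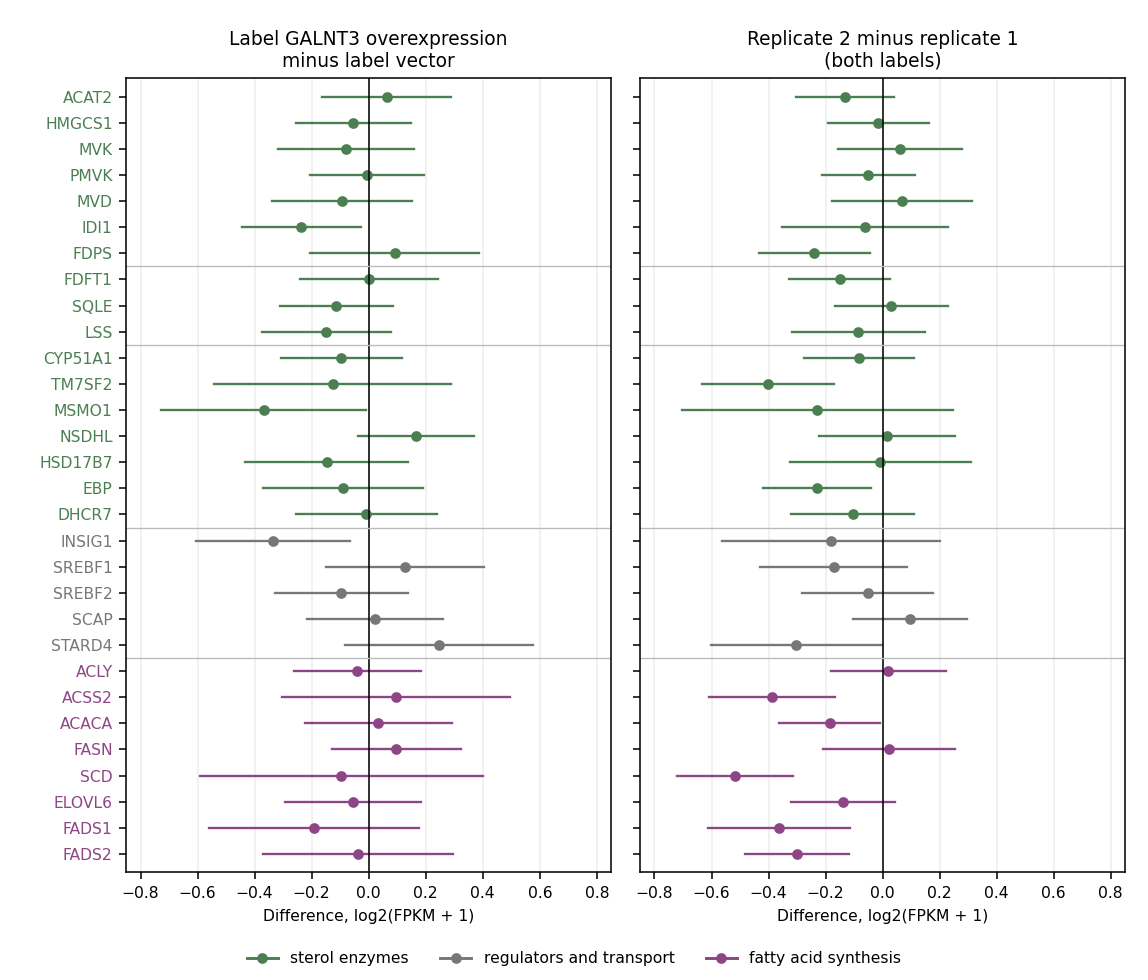
Difference of each of the 30 genes between the labels (left) and between replicate numbers (right), on the log2(FPKM + 1) scale, with points for limma estimates and bars for 95% intervals, coloured by class. On the left the intervals lie between -0.73 and 0.58 and 3 of them exclude 0 (IDI1, MSMO1 and INSIG1). On the right the lowest estimate is SCD at -0.52, and 5 of 8 fatty acid genes have intervals below 0.

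The replicate numbers were compared across both labels with limma in the same way. No member passed this test either, against 0.0546% of tested genes, with the smallest adjusted p at 0.281. The median difference, replicate 2 minus replicate 1, was -0.24 for the 8 fatty acid genes and -0.08 for the 17 sterol enzymes, beside -0.06 over all tested genes. Both replicate 2 libraries lay below both replicate 1 libraries for 6 of 8 fatty acid genes (75.0%) and for 6 of 17 sterol enzymes (35.3%), against 33.3% of all tested genes. The sterol share was thus close to that of all genes. The classes were not tested against each other, and genes in these counts come from the same 4 libraries and are not independent. An unadjusted p below 0.05, in the lower direction, was found for 5 of 8 fatty acid genes and 3 of 17 sterol enzymes, against 9.58% of tested genes lower and 13.1% in either direction. With the label added as a block, 7 members passed, all lower in replicate 2, against 6.49% of tested genes (4.79% lower). Replicate numbers carry no order, and the labels do not say what the libraries with the same number shared.

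SCD (chromosome 10, 100347124 to 100364834) differed most. It was at 199.7 and 178 FPKM in the replicate 1 libraries labelled vector and GALNT3 overexpression, and at 133 and 130.0 FPKM in the replicate 2 libraries. Replicate 2 was 0.698-fold of replicate 1 (log2 -0.52 ± 0.08, SE; limma, adjusted p = 0.281), and 75 of the 10998 tested genes had an estimate as low or lower. The desaturases FADS1 and FADS2, which act on polyunsaturated fatty acids, followed the same arrangement. FADS1, the delta-5 desaturase, was at 68.1 and 58.9 FPKM in replicate 1 and at 52.2 and 46.0 FPKM in replicate 2 (-0.36 ± 0.10; adjusted p = 0.309). FADS2 was at 130.0 and 121 FPKM, then 100.4 and 103 FPKM (-0.30 ± 0.07; adjusted p = 0.309). These 2 genes lie on opposite strands of chromosome 11 (61799625 to 61829318 and 61792980 to 61867354) and share 490 exon bases, so without knowledge of how strand was used in counting their fragments may not be fully separate. FADS2 stood above FADS1 by 1.91-fold to 2.23-fold per length in every library.

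ACSS2, which makes acetyl-CoA from acetate, was at 27.8 and 27.5 FPKM in replicate 1 and at 19.4 and 22.5 FPKM in replicate 2 (-0.39 ± 0.09, SE; limma, adjusted p = 0.309). ACACA, the acetyl-CoA carboxylase, was at 28.97 and 28.4 FPKM, then 24.3 and 26.0 FPKM. ELOVL6, which elongates palmitate, was at 18.4 and 17.1 FPKM, then 16.1 and 16.0 FPKM. All 3 lay lower in replicate 2 without overlap. ACLY and FASN did not follow this arrangement, with estimates of 0.02 ± 0.08 and 0.02 ± 0.09. Among the sterol enzymes TM7SF2 (-0.40 ± 0.10), FDPS (-0.24 ± 0.08) and EBP (-0.23 ± 0.08) had the lowest estimates of those without overlap. STARD4 was also lower in replicate 2 without overlap (-0.30 ± 0.12), as was SREBF1 (-0.17 ± 0.11), while SCAP was higher (0.10 ± 0.08). In this layout a gene whose labels do not overlap must overlap between replicate numbers. That holds for IDI1, SQLE, HMGCS1, MVK and every other member without overlap between the labels, and is not a separate result.

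**Figure D3:**
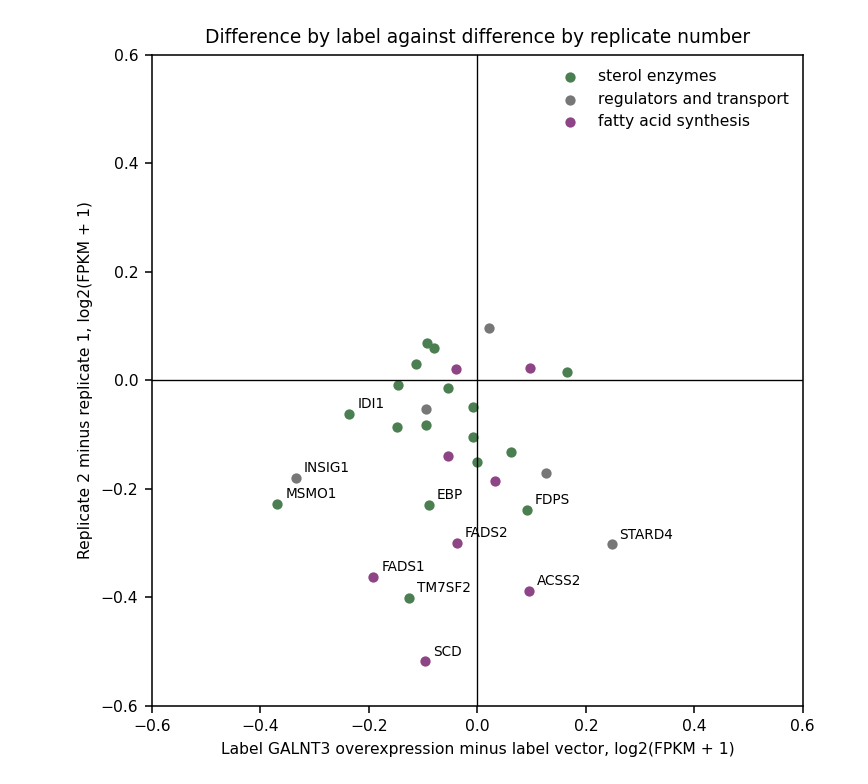
Difference between the labels (horizontal) against difference between replicate numbers (vertical) for the 30 genes, on the log2(FPKM + 1) scale, coloured by class, with names for genes beyond 0.2 on either axis. INSIG1 and MSMO1 lie to the left, at -0.34 and -0.37, and SCD, TM7SF2, ACSS2 and FADS1 lie at the bottom, from -0.52 to -0.36.

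Relative to each gene's mean over the 4 libraries, the median deviation of the fatty acid genes was 0.16 and -0.12 in vector replicates 1 and 2 and 0.08 and -0.08 in GALNT3 overexpression replicates 1 and 2. For the sterol enzymes it was 0.09 and 0.00, then 0.01 and -0.04, and over all tested genes it was 0.03 and -0.05, then 0.02 and 0.00. Vector replicate 1 was thus the highest library for both classes. The difference by replicate number was larger in size than the difference by label for 6 of 8 fatty acid genes and 7 of 17 sterol enzymes, against 55.4% of all tested genes. This must hold for any gene whose replicate numbers do not overlap, which were 6 fatty acid genes and 6 sterol enzymes. It is therefore not a separate result.

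**Figure D4:**
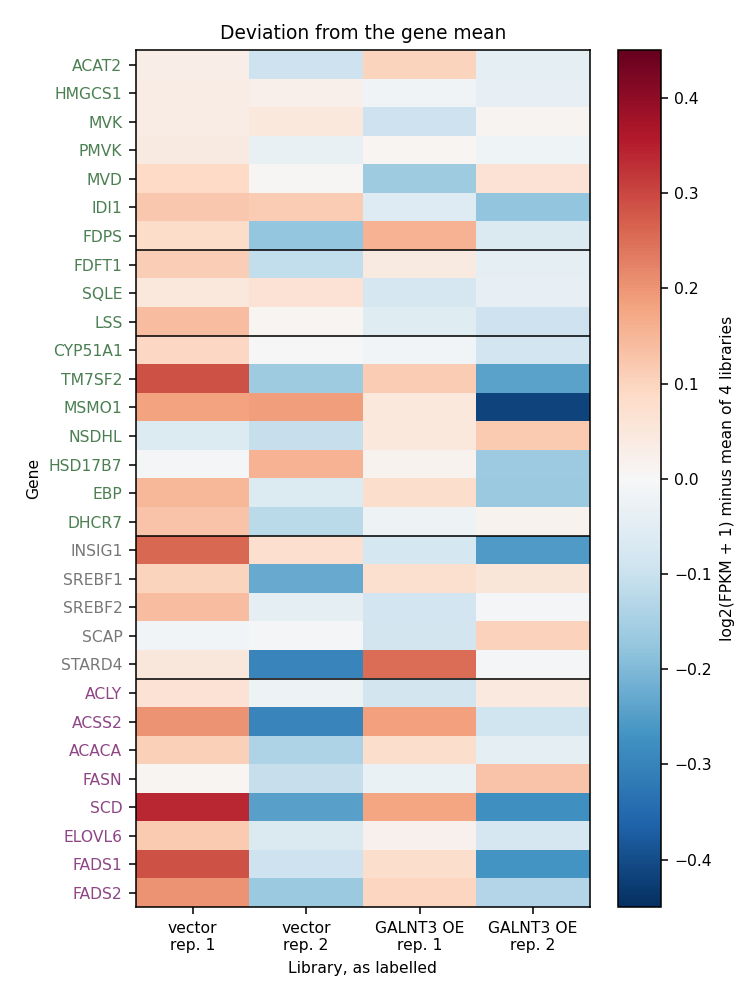
Deviation of each gene in each library from its mean over the 4 libraries, on the log2(FPKM + 1) scale (red above, blue below), with lines between the mevalonate arm, squalene to lanosterol, later sterol enzymes, regulators and transport, and fatty acid genes. In the lower block 6 of 8 genes alternate by replicate number and ACLY and FASN do not, with SCD at 199.7 and 178 FPKM in replicate 1 and 133 and 130.0 FPKM in replicate 2, while IDI1 and INSIG1 are red in both vector libraries and blue in both others.

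Other genes of these pathways were taken from lists by function. Of 12 tested genes of further sterol enzymes and lipoprotein uptake, 0 passed between the labels and 0 had an unadjusted p below 0.05 (limma), with a median of -0.03. The same counts were 0 and 0 for 11 tested genes of SREBP processing and sterol sensing, with a median of 0.00. Of 18 tested genes of fatty acid elongation, desaturation and activation, 0 passed and 3 had an unadjusted p below 0.05, all lower in the libraries labelled GALNT3 overexpression, against 3.72% of tested genes lower and 7.34% in either direction. ACSL4, which activates arachidonate, was at 16.4 and 15.9 FPKM in vector replicates 1 and 2 and at 12.8 and 12.1 FPKM in GALNT3 overexpression replicates 1 and 2 (-0.35 ± 0.09, SE; adjusted p = 0.290). FADS3, a desaturase of sphingoid bases whose gene lies 6165 bases beyond FADS2, was at 11.7 and 9.32 FPKM, then 7.77 and 7.64 FPKM (-0.40 ± 0.12; adjusted p = 0.437). ELOVL5, an elongase of polyunsaturated fatty acids, was at 49.2 and 45.8 FPKM, then 41.0 and 40.4 FPKM (-0.22 ± 0.09; adjusted p = 0.631). All 3 lay lower without overlap, and none passed. With replicate number as a block, ACSL4 (adjusted p = 0.0246) and FADS3 (adjusted p = 0.0366) did pass, against 4.03% of tested genes.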

How the data were processed

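RNA from silica columns went into a stranded mRNA kit, per the labels' protocols. FPKM values, 1 column per library, are what the authors deposited, with the unit inferred from values that are not whole because the header states none. GRCh38, hg19, TopHat and GenomeStudio 2010.1 are named, without roles, in the submitters' processing notes. How fragments were counted, by which annotation and on which strand was not given in the sources used here. FPKM divides by the library total, so abundant genes can move all others. Total depth is unknown. Unassigned columns numbered 0.

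The 10998 genes whose mean reached 1 FPKM were compared on log2(FPKM + 1) (which understates low genes) with limma 3.58.1 in R 4.3.3 (eBayes with trend), two-sided, adjusted by Benjamini-Hochberg over all tested genes. The fit had group, or replicate number, as its only term, with 2 residual and 5.34 or 4.01 prior degrees of freedom. An exact permutation test of 2 libraries against 2 cannot go below p = 0.333. On simulated data with 67 of 10936 genes changed by 0.5 on the log2 scale, 83.6% of these were called between groups. The same data held 66 genes changed by 1 and 64 changed by 2, and 12 unchanged genes were also called. The simulated spread followed a smooth trend on the mean level, with no spread particular to a gene and no difference between replicate numbers. The share called can therefore be too high for measured libraries, and it does not show what the test would find among the members. Whether the libraries measured here would give the same share was not tested. The members and lists were chosen with earlier results of these data known. The text names GALNT3, the 30 members and, from each further list and for each comparison, up to 3 genes with the smallest unadjusted p below 0.05. NR1H3 and the cell type markers are named outside this rule, after their values were seen. Older names were matched for 5 listed genes through RefSeq. Positions and exon overlaps are from GENCODE 29 (GRCh38), matched by symbol. By exons, 15 members overlap another annotated gene, 14 of them on the opposite strand, and 5 have named pseudogenes, so part of their fragments may be misassigned. Of 2615 rows out of alphabetical order in the table, 0 were members. Python 3.11.15 was used for the remaining steps, and 13 alternative settings were run.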

Additional observations from a re-analysis of the deposited data

How the results depend on the processing

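Total depth is unknown, and estimates near 0 have no settled sign. The count of 0 members passing held in each fit that left out 1 library, for both comparisons, and under every other setting except the replicate block. The labels do not say that a replicate number marks a shared culture or batch. With the replicate block (group and number in 1 fit, 1 residual degree of freedom), calls between groups went from 55 to 443 and members from 0 to 1, INSIG1 (adjusted p = 0.0460). Calls between replicate numbers went from 6 to 714 and members from 0 to 7, all lower in replicate 2: SCD (0.00298), FADS1 (0.0134), ACSS2 (0.0237), FADS2 (0.0254), TM7SF2 (0.0264), FDPS (0.0316) and STARD4 (0.0336). Of the 64 tested genes of the further lists, ACSL4 and FADS3 passed between groups and LPIN1 (0.0380), ABCA1 (0.0398) and NPC2 (0.0462) between replicate numbers. Of all tested genes, 4.03% passed between groups and 6.49% between replicate numbers with this block, so calls in the further lists were not more frequent than over all genes. Differences of replicate 2 from replicate 1 within the 2 labels correlated at r = 0.218 across 10998 genes and at r = 0.543 across the 30 members, which are not independent.

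Over all genes, calls between groups were 12 with every gene above 0, 31 at a mean FPKM minimum of 5, and 23 to 83 with 1 library left out (23 without vector replicate 1, 83 without GALNT3 overexpression replicate 2). Calls between replicate numbers were 2 with at least 5 FPKM, 0 without genes listed at 0 (limma, with 1480 genes at an unadjusted p below 0.05), and 11 to 14 with 1 library left out. The fatty acid median between groups ran from -0.15 to 0.15 with 1 library left out (0.15 without vector replicate 1), and between replicate numbers it was -0.19 with quantile normalization. The sterol median ran from -0.11 to -0.043 between groups with 1 library left out, and from -0.14 (without GALNT3 overexpression replicate 1) to -0.031 (without vector replicate 1) between replicate numbers. Any such omission leaves the labels with unequal replicate numbers. The cause of these shifts was not tested.

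Signs of estimates turned for some members, none of them called. Between groups FDFT1 was at 4.01e-05 with a pseudocount of 0.1. Between replicate numbers HMGCS1 and HSD17B7 were at 0.022 and 0.029 with median centring, and HMGCS1, PMVK and HSD17B7 at 0.010, 0.015 and 0.066 with quantile normalization. With 1 library left out, the sign turned between groups for 16 members, whose lowest and highest values were ACACA (-0.090 to 0.16), ACAT2 (-0.0076 to 0.13), ACLY (-0.10 to 0.024), ACSS2 (-0.15 to 0.35), DHCR7 (-0.13 to 0.12), EBP (-0.21 to 0.035), ELOVL6 (-0.15 to 0.037), FADS2 (-0.22 to 0.15), FDFT1 (-0.11 to 0.11), FDPS (-0.038 to 0.22), MVD (-0.21 to 0.019), PMVK (-0.043 to 0.028), SCAP (-0.072 to 0.12), SCD (-0.39 to 0.20), SREBF1 (-0.036 to 0.29), TM7SF2 (-0.35 to 0.10). Between replicate numbers it turned for 12 members: ACLY (-0.054 to 0.094), FASN (-0.093 to 0.14), HMGCS1 (-0.044 to 0.014), HSD17B7 (-0.17 to 0.15), IDI1 (-0.21 to 0.085), LSS (-0.18 to 0.011), MSMO1 (-0.53 to 0.073), MVD (-0.055 to 0.19), MVK (-0.0022 to 0.12), NSDHL (-0.095 to 0.13), SQLE (-0.031 to 0.093), SREBF2 (-0.16 to 0.059).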

Other observations

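Genes that assemble or burn fatty acids were read from 2 further lists. Of 10 tested genes of glycerolipid synthesis, 0 passed in either comparison (limma), and 0 between the labels and 2 between replicate numbers had an unadjusted p below 0.05, against 7.34% and 13.1% of tested genes. LPIN1, a phosphatidate phosphatase, was at 12.4 and 11.2 FPKM in the replicate 1 libraries labelled vector and GALNT3 overexpression, and at 9.80 and 8.72 FPKM in the replicate 2 libraries (log2 -0.32 ± 0.09, SE; adjusted p = 0.309). AGPAT2, which adds the second acyl chain, was at 14.4 and 14.6 FPKM, then 12.4 and 12.8 FPKM. Of 13 tested genes of fatty acid oxidation, 0 passed in either comparison, and 5 (38.5%) lay higher without overlap in the libraries labelled GALNT3 overexpression, against 20.9% of tested genes. Between the labels 0 of the 13 had an unadjusted p below 0.05 (limma), against 7.34% of tested genes. Between replicate numbers ECHS1 and HADHB, enzymes of the mitochondrial oxidation cycle, had an unadjusted p below 0.05 (2 of 13, close to the 13.1% of all tested genes), with estimates of -0.25 ± 0.08 and -0.20 ± 0.07 (adjusted p = 0.316 and 0.350).

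Of 11 tested genes of SREBP processing and sterol sensing, 0 passed between replicate numbers and 2 had an unadjusted p below 0.05 (limma), against 13.1% of tested genes. ABCA1, the cholesterol exporter, was at 1.91 and 1.82 FPKM in replicate 1 (vector, then GALNT3 overexpression) and at 0.933 and 1.22 FPKM in replicate 2 (-0.47 ± 0.13, SE; limma, adjusted p = 0.309). MYLIP, an E3 ligase that degrades lipoprotein receptors, was at 7.23 and 7.57 FPKM, then 5.88 and 6.24 FPKM (adjusted p = 0.327). Between replicate numbers an unadjusted p below 0.05 (limma) was found for 1 of 12 tested genes of further sterol enzymes and lipoprotein uptake. The count was 1 of 18 for elongation, desaturation and activation, and both shares lay below the 13.1% of tested genes. The first was NPC2, which moves cholesterol out of lysosomes, at 48.6 and 54.5 FPKM, then 41.0 and 45.8 FPKM (adjusted p = 0.366). The second was ACSL3, which activates fatty acids at lipid droplets (adjusted p = 0.364). NR1H3, the sterol-sensing nuclear receptor LXR alpha, had values of 1.77 and 1.97 FPKM under the GALNT3 overexpression label and was listed at 0 under the vector label. It was below the level for testing and is named after its values were seen. A value of 0 in this table can be a failed estimate. CD68, a lysosomal protein also used as a macrophage marker, was lower in the libraries labelled GALNT3 overexpression (29.3 and 27.2 FPKM, then 17.1 and 16.3 FPKM; limma, adjusted p = 0.0238), while PTPRC, which marks leukocytes, was at 0.00983 FPKM in vector replicate 1 and listed at 0 in the other libraries. The summed level of the 6 leukocyte markers was 27.5 to 30.7 FPKM and 16.6 to 18.1 FPKM in the 2 labels, nearly all of it CD68.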
